A study of Mus musculus with 8 samples.

Results

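InvC and InvC∆Bor are 2 homozygous mouse mutants that carry the same inversion at the Sox9 locus, and by its name InvC∆Bor also lacks the domain boundary that InvC keeps. Their contacts were compared over all pairs of 10 kb bins with both ends in chr11:110920001-113030000 of the deposited mm9 maps. That interval runs from Kcnj2 to a domain edge at 113.03 Mb. The comparison holds 208 bins and 21736 pairs of bins, of 172578 pairs in each map of 587 bins. Of these pairs, 21322 lay at least 20 kb apart and were used. A bin pair enters by its position alone.

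Mammalian chromosomes fold into topologically associating domains, stretches whose DNA meets more often within the stretch than across its edges. Edges often hold binding sites of CTCF, a zinc finger protein that stops cohesin as it extrudes DNA loops. The protein made from Sox9 is a transcription factor that cartilage cells need to form, and a large gene desert beside it holds regulatory elements active in tissues that include the limb. Kcnj2, which encodes an inwardly rectifying potassium channel, lies in the neighbouring domain.

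Capture Hi-C was made from fore- and hindlimb buds of E12.5 embryos. This method cuts crosslinked chromatin, here with DpnII, ligates the ends that lie close, enriches the ligation products of one region with probes and counts the read pairs that join each pair of bins. Both libraries came from homozygous mutants, and both labels give G4 embryonic stem cells as the background. Each library pooled the limb buds of 3 to 8 embryos, and each genotype had 1 library, so no difference below has a replicate check. Of the series' 8 libraries analysed here, the other 6 (∆BorC1, ∆BorC1-2, ∆BorC1-4, ∆CTCF, BorKnockIn and InvIntra) are mutants used side by side only, and the wildtype was not analysed here.

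InvC held 4938928 raw contacts and InvC∆Bor 3056502. InvC was therefore thinned at random to 3056381 contacts, and its counts below are thinned unless full depth is named. Observed over expected is the number of contacts divided by the number that the same library's own mean at each distance gives. Ratios are InvC∆Bor over InvC of that value. Their 95% intervals are exact conditional binomial intervals that cover counting error only, since read pairs without molecular identifiers are not independent molecules. Unedited sequence left of 110.6 Mb and right of 113.35 Mb (the flanks) shows how far the libraries differed away from the edits. It is not a replicate error.

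The interval was split into 3 stretches. The Kcnj2 domain runs from 110.92 to 111.39 Mb (47 bins), the inverted desert from 111.39 to 112.49 Mb (110 bins) and the Sox9 side from 112.52 to 113.03 Mb (51 bins). The 3 bins between the last 2, from 112.49 to 112.52 Mb, are called the boundary place and were left out. Positions are those of the deposited maps. Over 106 desert bins, read coverage of both mutants correlated with the mirrored coverage of ∆BorC1 (Pearson's r 0.900 for InvC and 0.911 for InvC∆Bor) and not with its coverage at the same position (0.0110 and 0.0108), so these coordinates hold the desert in reversed order. The mirrored value is the highest over a range of offsets, while the same position was read without offset. Such coverage follows the probes and restriction sites of each bin's sequence, which all libraries share.

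Coverage at the boundary place showed the difference in sequence between the genotypes. The bin at 112.50 Mb held 12374 contacts in InvC but only 131 in InvC∆Bor (ratio 0.0106). The next bin, at 112.51 Mb, held 15120 and 6546, and the one before, at 112.49 Mb, held 12727 and 9620. Summed over the bins from 112.47 to 112.53 Mb, losses only, the coverage missing from InvC∆Bor came to 22.7 kb of bins at the level of InvC. That sum takes in bins outside the boundary place, with ratios of 0.937 and 0.870 on its left and 0.795 and 0.926 on its right. It is therefore not the length of the deletion. Elsewhere the libraries had the same coverage profile, with r 0.983 between them over 106 desert bins and 0.981 over 310 flank bins. The coverage ratio of single bins in the comparison ran from 0.795 to 1.17, within or near the 0.835 to 1.20 of the flanks.

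The desert met the Sox9 side more often in the library without the boundary. Contacts between them numbered 67965 in InvC and 109695 in InvC∆Bor. Observed over expected went from 0.849 to 1.39, a ratio of 1.63 (1.62 to 1.65), which is a log2 ratio of 0.71. In InvC the desert and the Sox9 side thus met less than the library's mean at the same distances, and in InvC∆Bor more. The 12 blocks of flank sequence had ratios of 0.948 to 1.04, with a median of 1.00, so this difference lay outside what unedited sequence showed. In pooled tissue, more cells with a contact and a longer contact per cell cannot be told apart.

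Kcnj2 domain and Sox9 side, the outermost pair of stretches, met more often as well. They made 17631 contacts in InvC and 26492 in InvC∆Bor, and observed over expected went from 1.34 to 1.84, a ratio of 1.38 (1.35 to 1.40). The Sox9 side showed the opposite within itself. Its own contacts numbered 136632 in InvC and 107384 in InvC∆Bor, with observed over expected of 1.64 and 1.37 and a ratio of 0.836 (0.829 to 0.843).

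The 3 blocks that do not involve the Sox9 side differed little. Within the desert the ratio was 0.985 (0.980 to 0.990; 313773 and 292156 contacts), and between the Kcnj2 domain and the desert it was 0.966 (0.958 to 0.974; 110164 and 104534 contacts). Both lay inside the flank range. Within the Kcnj2 domain the ratio was 1.05 (1.04 to 1.07; 63821 and 63225 contacts), just above the highest flank block. On the authors' balanced values its log2 ratio was -0.0029 in place of 0.075, so its direction depends on the values used.

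**Figure D1:**
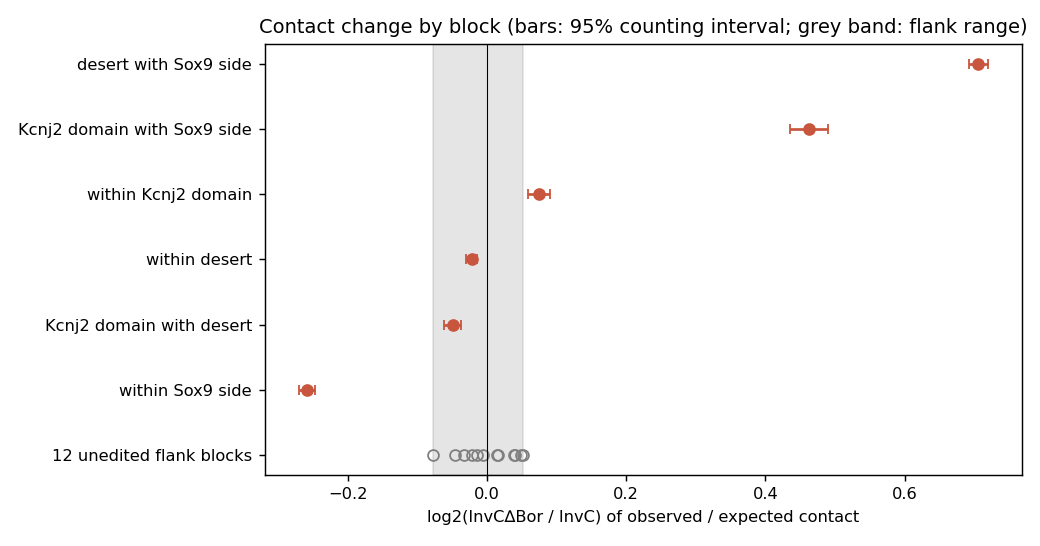
Log2 ratio of InvC∆Bor over InvC in observed over expected contact (x axis) for the 6 blocks (red points with 95% counting intervals) and 12 unedited flank blocks (open circles, range shaded). Desert with Sox9 side (0.71) and Kcnj2 domain with Sox9 side (0.46) lie right of the flank band, the Sox9 side within itself (-0.26) lies left of it, and the other 3 blocks lie in or beside it.

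By the deposited coordinates, the excess of contact between the desert and the Sox9 side was larger at short distance. For pairs 20 to 200 kb apart, which lie close to the boundary place, observed over expected went from 0.540 to 1.43, a ratio of 2.66. At 200 to 500 kb the ratio was 1.79, at 500 to 1000 kb 1.54, at 1000 to 1500 kb 1.41 and at 1500 to 2500 kb 1.31. The flanks stayed between 0.979 and 1.04 in their classes up to 1500 kb, and no flank value was computed beyond that. Both maps use the same coordinates, though coverage was missing from InvC∆Bor at the boundary place, so real distances across it would be shorter there. With these distances read 20 kb shorter, the log2 ratio of all desert pairs with the Sox9 side was 0.64 in place of 0.71. The distance classes were not recomputed in this way, and its effect on their trend was not tested. Kcnj2 domain and Sox9 side, which lie over 1000 kb apart, had 1.42 at 1000 to 1500 kb and 1.36 at 1500 to 2500 kb. Within the Sox9 side the deficit was larger at long distance, with 0.871 at 20 to 200 kb and 0.729 at 200 to 500 kb.

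The blocks with a ratio near 1 also changed with distance. Within the desert the ratio was 1.01 at 20 to 200 kb, 0.977 at 200 to 500 kb, 0.880 at 500 to 1000 kb and 0.654 over the 55 bin pairs at 1000 to 1500 kb. Kcnj2 domain and desert had 1.01 at both 20 to 200 kb and 200 to 500 kb, 0.960 at 500 to 1000 kb and 0.877 at 1000 to 1500 kb. Desert pairs in the longest class join its far ends, one of which touches the boundary place. Each library's mean contact by distance also differed somewhat, the ratio of the means being 0.954 at 20 kb, 0.974 at 500 kb and 1.06 at 1500 kb.

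Pairs of 50 kb bins show where in each block the difference sat. A pair was counted as higher or lower when it passed 1.5-fold. Among 1012 such pairs within the flanks, 2 were higher (0.198%) and 5 were lower (0.494%). Between the desert and the Sox9 side 110 of 242 pairs were higher (45.5%), none was lower, and 240 had a ratio over 1, with a median of 1.48 and a range of 0.855 to 3.55. Kcnj2 domain and Sox9 side had 32 of 110 pairs higher (29.1%) and 107 over 1. Within the Sox9 side 15 of 65 pairs were lower (23.1%), and all 65 had a ratio under 1, from 0.381 to 0.975.

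Few pairs passed in the remaining blocks, and those that did were all lower. There were 5 of 253 within the desert, 4 of 220 between the Kcnj2 domain and the desert and 0 of 54 within the Kcnj2 domain. The 3 lowest pairs in the first 2 of these blocks share one end, the 50 kb bin at 112.44 Mb that touches the boundary place. With the far end of the desert at 111.39 Mb this bin made 675 contacts in InvC and 429 in InvC∆Bor (ratio 0.604). With the Kcnj2 bin at 110.92 Mb, which is 20 kb wide, it made 300 and 204 contacts (0.617).

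**Figure D2:**
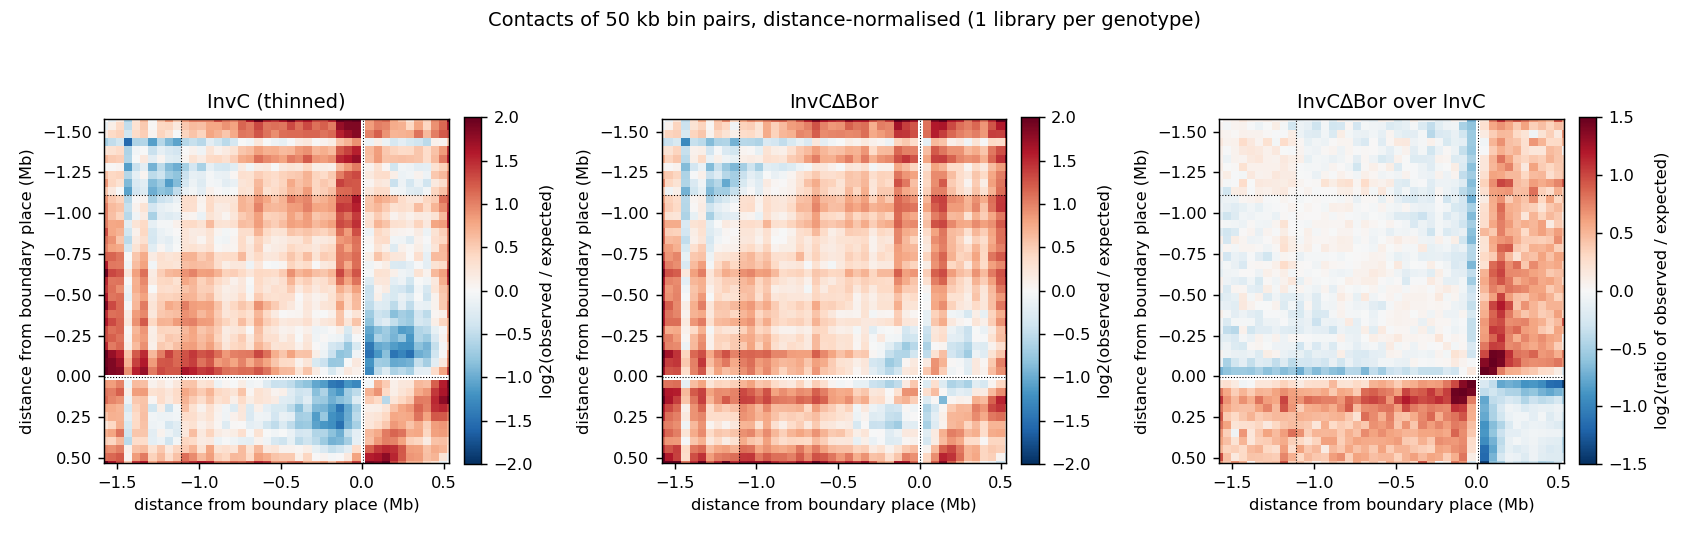
Contacts of 50 kb bin pairs in InvC (left) and InvC∆Bor (middle), as log2 of observed over expected, and the log2 ratio of InvC∆Bor over InvC (right). Both axes give the distance from the boundary place in Mb, and dotted lines mark the edges of the 3 stretches. The right map shows higher contacts (red) of the Sox9 side with nearly all bins left of it. Lower contacts (blue) lie within the Sox9 side and along a strip of desert at the boundary place.

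The pairs with the highest ratios lay directly across the boundary place. The desert bin at 112.44 Mb and the Sox9 side bin at 112.52 Mb made 843 contacts in InvC and 2801 in InvC∆Bor, and observed over expected went from 0.411 to 1.46 (ratio 3.55). The bin at 112.57 Mb made 666 and 1871 contacts with 112.39 Mb (3.01), and 391 and 1020 with 112.34 Mb (2.78). These ratios were not recomputed with distances read shorter in InvC∆Bor. The lowest 3 pairs between the desert and the Sox9 side all had an end at 113.02 Mb, the last bin of the Sox9 side. That bin is 10 kb wide. Its pair with 112.44 Mb made 224 and 185 contacts, a ratio of 0.855 with an interval that holds 1 (0.700 to 1.04).

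Within the Sox9 side, the lowest pairs joined the sequence beside the boundary place to the domain edge. The bin at 112.52 Mb and that at 113.02 Mb made 368 contacts in InvC and 134 in InvC∆Bor, and observed over expected went from 3.71 to 1.41 (ratio 0.381). The same bin made 1585 and 666 contacts with 112.97 Mb (0.446), and 1373 and 586 with 112.92 Mb (0.454). The pair closest to 1 was 112.72 with 112.87 Mb, with 2134 and 1942 contacts (0.975).

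Strips of 100 kb on each side of the boundary place, picked after the maps were seen, differed from the rest of their stretches. The desert strip met the Kcnj2 domain at 2.68 times the expected contact in InvC and at 2.00 times without the boundary (ratio 0.747, 0.724 to 0.770). It met the rest of the desert at 1.31 and 1.12 (0.856). Without that strip, the desert's contacts with itself had a ratio of 0.999 (0.994 to 1.00), and those with the Kcnj2 domain had 0.984.

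The strip on the Sox9 side also met the rest of its own side less often, and by more than the desert strip did. With the rest of its own side, observed over expected was 1.55 in InvC and 0.959 in InvC∆Bor (ratio 0.620), and it met the rest of the desert at 0.804 and 1.29 (1.60). The strips met each other at 0.523 and 1.56, a ratio of 2.98 (2.86 to 3.10). With distances across the boundary place read 20 kb shorter in InvC∆Bor, the log2 of this ratio was 1.29 in place of 1.57. Higher contact of the desert with the Sox9 side was not limited to the strips, since the rest of the desert and the rest of the Sox9 side stood at 0.919 and 1.43, a ratio of 1.56 (1.54 to 1.57). The rest of the Sox9 side had a ratio of 0.896 within itself.

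Single 10 kb bins, read without correction for their total coverage, showed the same division. All 110 desert bins met the Sox9 side more often in InvC∆Bor, with ratios of 1.20 to 2.59 and a median of 1.56, and every interval lay above 1. The highest 3 were the neighbouring bins at 112.38, 112.39 and 112.40 Mb, with 732 and 1791 contacts at the first of them (2.59). All 47 bins of the Kcnj2 domain had a ratio over 1 with the Sox9 side, 44 with an interval above 1. Here the highest was the bin at 111.31 Mb with 169 and 347 contacts (1.90), which was also the highest bin of the Kcnj2 domain with its own stretch (1.25) and with the desert (1.09). It was followed by the Kcnj2 bin at 110.92 Mb with 500 and 953 contacts (1.72).

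Seen from the other end, all 51 bins of the Sox9 side met the desert more often, with ratios of 1.18 to 2.16. The 3 highest were neighbours between the boundary place and Sox9, at 112.61 (2.07), 112.62 (2.08) and 112.63 Mb (2.16), and the last had 2144 and 4516 contacts. The bin in which Sox9 was placed, at 112.64 Mb, had 1164 and 2304 (2.03). The bin at 112.63 Mb was also the highest with the Kcnj2 domain, with 469 and 956 contacts (1.89), where 50 of 51 bins had a ratio over 1. The exception was the bin that touches the boundary place, at 112.52 Mb, with 273 and 243 contacts (0.829). Total coverage of that bin also had the lowest ratio in the comparison (0.795). All 51 bins had a ratio under 1 with their own side, 50 with an interval below 1. The 3 lowest were those nearest the boundary place, at 112.52 (0.566), 112.53 (0.613) and 112.54 Mb (0.644). Total coverage had ratios of 0.926 at 112.53 Mb and 0.919 at 112.54 Mb.

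Counting intervals were narrower than the differences in unedited sequence. Of 310 flank bins with their own flank, 64 had an interval above 1 and 73 below 1, with ratios of 0.865 to 1.19. The profiles of the desert with itself (0.743 to 1.11) and of the Kcnj2 domain with itself (0.900 to 1.25) reached outside that range at few places. The lowest desert bins with their own stretch were 112.48 (0.743) and 112.47 Mb (0.761), beside the boundary place. With the Kcnj2 domain, the lowest were 112.47 (0.604), 112.48 (0.622) and 112.46 Mb (0.696). Total coverage of these bins had ratios of 0.937 at 112.47, 0.870 at 112.48 and 0.977 at 112.46 Mb.

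**Figure D3:**
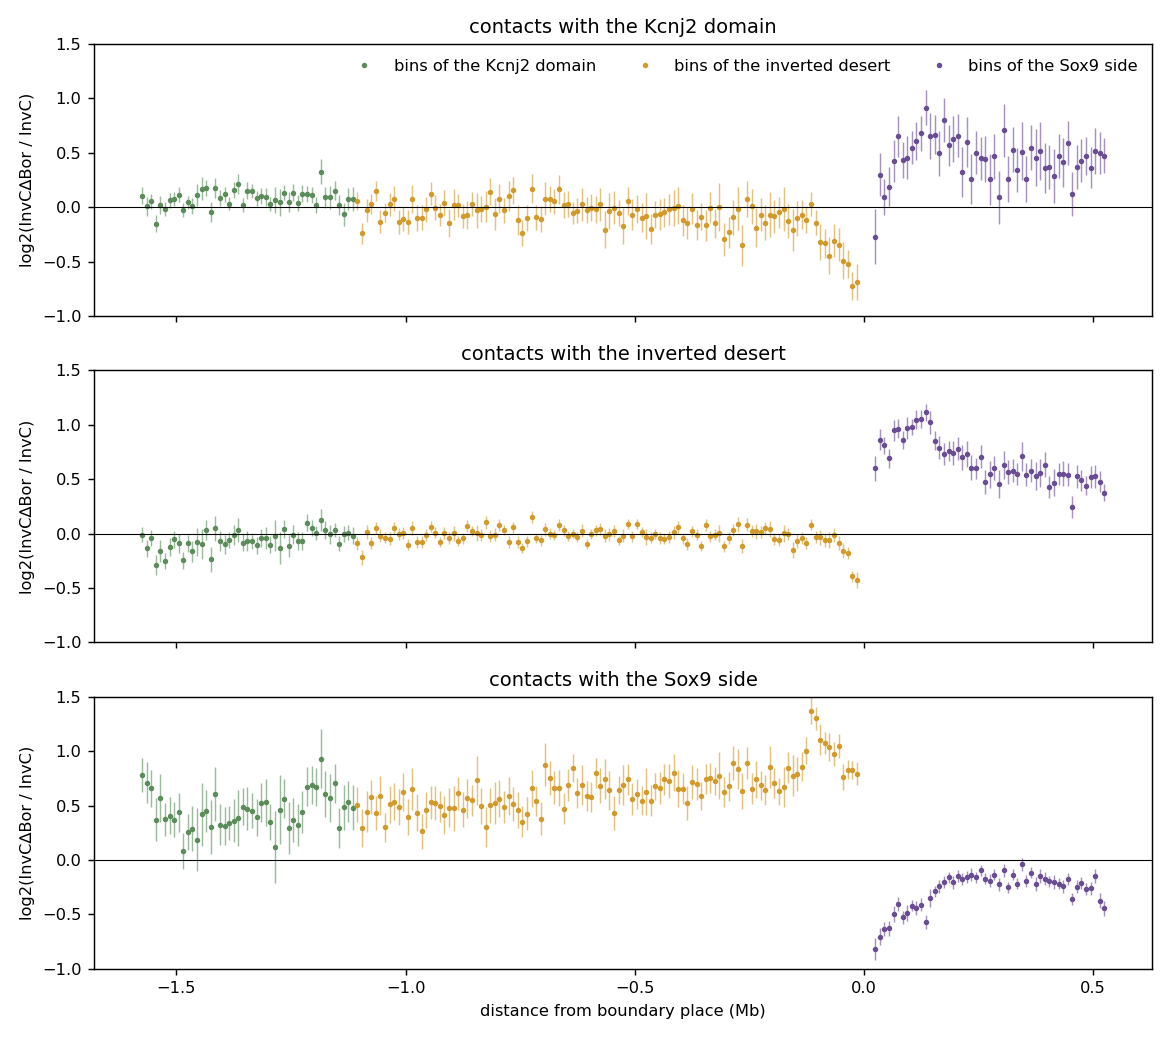
Log2 ratio of InvC∆Bor over InvC for each 10 kb bin, with its 95% counting interval, for contacts with the Kcnj2 domain (top), the inverted desert (middle) and the Sox9 side (bottom), against the bin's distance from the boundary place in Mb. Desert bins scatter on both sides of 0 in the upper 2 panels and are lowest beside the boundary place, and all 110 lie above 0 in the bottom panel, where the 51 Sox9 side bins lie below 0.

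The insulation score is the log2 of the mean balanced contact across a position, within 200 kb on each side, over the mean of all positions in that library, so a low score marks an edge. At 112.49 Mb, the left edge of the boundary place, the score was -1.43 in InvC and -0.16 in InvC∆Bor, a difference of 1.27. At 234 flank positions the difference ran from -0.03 to 0.10. The score has no correction for distance and was not recomputed with distances across the boundary place read shorter in InvC∆Bor. In InvC∆Bor the lowest scores within 250 kb of the boundary place were elsewhere. On the right the minimum lay at Sox9 (112.64 Mb), with -0.77 against -0.36 in InvC. On the left it lay at 112.38 Mb, with -0.56 against -0.61. InvC also had local minima at 112.64 Mb and at 112.39 Mb (-0.64).

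Scores at the other edges of the interval differed by less. Only the difference at 113.03 Mb (-0.066) lay outside the flank range. The domain edge at 113.03 Mb had -1.21 in InvC and -1.27 in InvC∆Bor, the Kcnj2 end at 110.92 Mb had -0.66 and -0.61, and the split between the Kcnj2 domain and the desert at 111.39 Mb had -0.21 and -0.24. Of 167 positions whose window did not reach the boundary place, 60 differed by more than the flank range, the farthest below it being 112.73 Mb, with 0.29 in InvC and -0.03 in InvC∆Bor. All 60 lay below that range, since the largest rise among the 167 was 0.053. The range is the lowest and highest flank value, so no flank position can pass it. Windows of neighbouring positions overlap, so the 60 are not separate places.

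**Figure D4:**
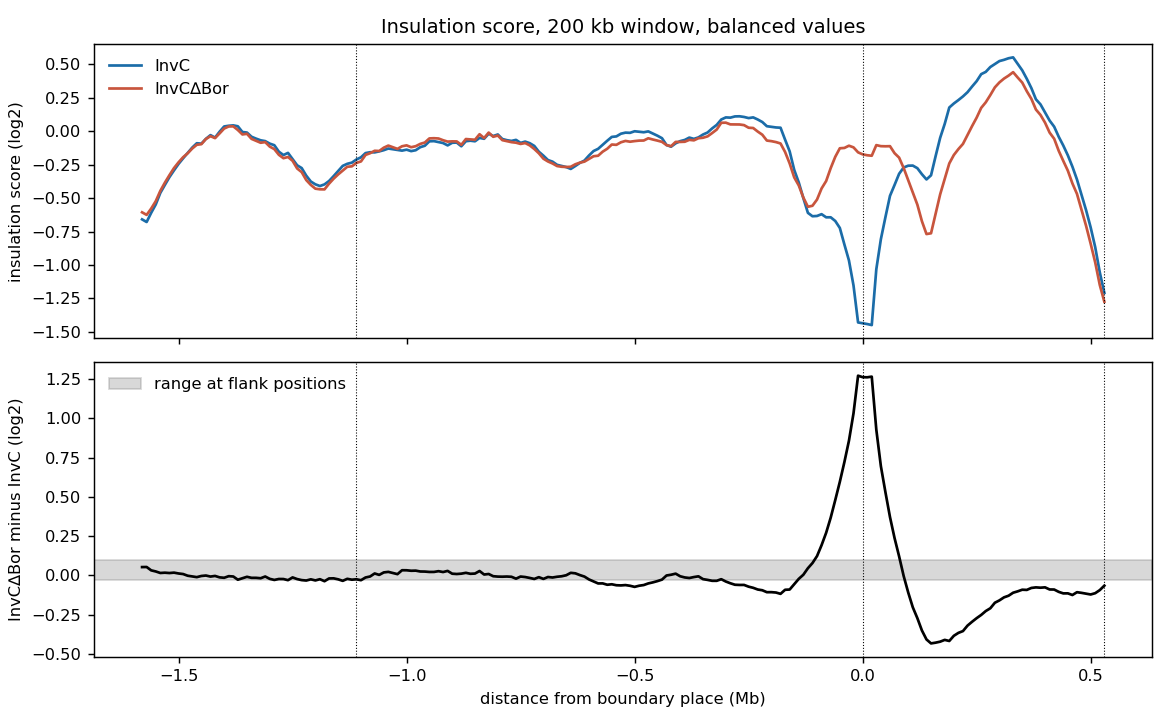
Insulation score (log2, 200 kb window, balanced values) of InvC and InvC∆Bor (top) and their difference with the range at flank positions shaded (bottom), against the distance from the boundary place in Mb. The deep minimum of InvC at 0 (-1.43) is missing in InvC∆Bor (-0.16), whose minima lie at Sox9 (-0.77) and to the left of the boundary place (-0.56).

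The Sox9 promoter was placed in the bin at 112.64 Mb and was followed as a window of 3 bins, at full depth and with shares of the window's contacts at least 20 kb away. The desert took 18.7% of them in InvC (18.3 to 19.1, exact Clopper-Pearson 95% interval). In InvC∆Bor it took 34.2% (33.6 to 34.8), which gives a ratio of 1.83 (1.78 to 1.88). The Sox9 side took 52.1% and 34.6% (0.665), and the Kcnj2 domain took 4.38% and 7.51% (1.71). Sequence farther left took 11.1% and 14.4%. The Sox9 window thus had about equal shares with the desert and with its own side in InvC∆Bor.

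The desert's larger share was spread over its whole length. In each of its 11 steps of 100 kb the ratio lay between 1.66 and 2.13, the highest being the step from 112.29 to 112.39 Mb with 1.87% and 3.98%. The last step before the boundary place had the largest share in both libraries, with 3.34% and 5.67% (1.70). Right of the boundary place, the first step from 112.52 to 112.62 Mb fell short by the most, with 14.4% in InvC and 8.33% in InvC∆Bor (0.578). The other 4 full steps of the Sox9 side had ratios of 0.671 to 0.743.

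The Kcnj2 promoter was placed in the bin at 110.92 Mb. Its window gave the Sox9 side 4.56% of its contacts in InvC and 7.55% in InvC∆Bor (1.65), and the desert 28.1% and 26.5% (0.943). Sequence right of the Sox9 side, beyond the domain edge, took 3.08% and 4.64% (1.51, 1.40 to 1.62), so the larger share was not limited to the Sox9 side. Within the desert its steps had ratios of 0.874 to 1.04 apart from the last one before the boundary place, with 2.68% and 2.14% (0.799). Across the boundary place the first step had 1.20% and 1.57% (1.32), and the step from 112.62 to 112.72 Mb, which holds Sox9, had 0.952% and 1.88% (1.97).

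**Figure D5:**
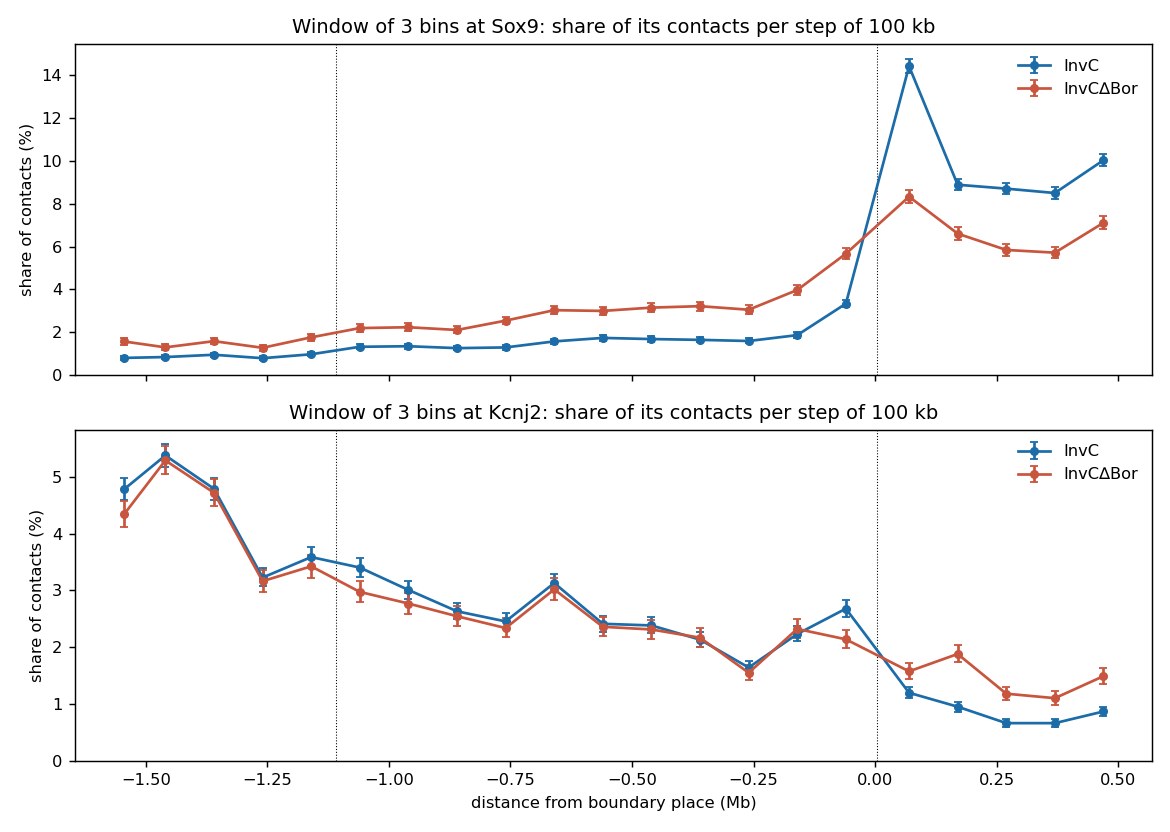
Share of all contacts of a 3 bin window at Sox9 (top) and at Kcnj2 (bottom) in steps of 100 kb, in percent, with exact 95% intervals, against the distance of the step from the boundary place in Mb. The Sox9 curve of InvC∆Bor lies above that of InvC at each step left of the boundary place and below it at each step to the right, and the Kcnj2 curves part mainly to the right of it.

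Pairs of places, each of 3 bins, were set beside each other at the full depth of both libraries. Kcnj2 and Sox9 made 168 contacts in InvC and 250 without the boundary. Observed over expected was 2.28 and 4.95, with a ratio of 2.17 (1.78 to 2.66). Kcnj2 and the domain edge at 113.03 Mb made 180 and 210 contacts (1.75). With the desert bins at the boundary place, Kcnj2 made 474 and 192 contacts, at 5.61 and 3.38 times the expected (0.603), the highest value of any such pair in InvC. With the bins just right of it, 169 and 106 contacts gave a ratio of 0.937, and its interval of 0.728 to 1.20 holds 1.

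Sox9 and its flanking places differed in both directions. With the bins just right of the boundary place Sox9 made 1363 and 373 contacts (0.472), and with those just left of it 648 and 577 (1.55). With the domain edge it made 1516 and 738 contacts (0.839). The desert bins just left of the boundary place and the domain edge made 632 and 307 contacts, a ratio of 0.811 (0.705 to 0.931), which is below 1 although the pair joins the desert to the Sox9 side. The bins on either side of the boundary place met at 0.431 times the expected contact in InvC and 1.58 in InvC∆Bor, and those on its right met the domain edge at 3.42 and 1.40 (0.408). No pair of places was recomputed with distances across the boundary place read shorter in InvC∆Bor.

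InvIntra, BorKnockIn and the 4 libraries named for deletions give the levels of the same coordinates in other genotypes, at full depth. Coverage of InvIntra matched the mirrored order, as in InvC (r 0.846), and that of the deletion libraries the order of ∆BorC1. BorKnockIn had r 0.061 at the same position and 0.150 mirrored. The same position was read without offset, so a shifted original order was not tested for it. Equal coordinates thus need not hold the same desert sequence. Desert with Sox9 side had an observed over expected of 1.56 in InvIntra, 1.12 in BorKnockIn and 1.64 to 1.80 in the deletion libraries, against 0.850 in InvC and 1.39 in InvC∆Bor. InvC had the lowest of the 8 values and InvC∆Bor the third lowest.

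Contact within the Sox9 side was 1.40 in InvIntra, 1.47 in BorKnockIn, 1.29 to 1.32 in the deletion libraries, 1.64 in InvC and 1.37 in InvC∆Bor. The strip of the Sox9 side beside the boundary place met the rest of its side at 0.991 in InvIntra, 1.37 in BorKnockIn and 0.792 to 0.878 in the deletion libraries, where InvC had 1.56 and InvC∆Bor 0.959. None of these differences was tested, each library being 1 sample.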

How the data were processed

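For any 2 bins of 10 kb, the raw maps that the authors deposited give the count of read pairs joining them. The balanced maps are a signal that the authors deposited beside them (KR in the file names), with a total close to the raw total. Reads were processed with Bowtie2 2.2.6 and Juicer on build mm9, per the submitters' processing notes. Which read pairs were filtered, and how duplicates were treated, is not given in the sources used here. Per the series' design text there was 1 library per condition.

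InvC was thinned binomially, keeping 61.9% of its contacts. Bins under 0.05 of the median total (2, both in the flanks) and the 3 bins of the boundary place were left out, as were pairs under 20 kb apart. Expected contact was each library's mean at each distance over all kept pairs, so a gain in one block lowers the values of others at that distance. A 50 kb pair needed 50 contacts over both libraries to be counted and passed at 1.5-fold. Named were Sox9, Kcnj2 and the boundary place, the 3 highest and 3 lowest 50 kb pairs of each block with at least 100 contacts, and the 3 highest and lowest bins of each profile with at least 200. Of these the text gives a selection.

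No mm9 annotation was used: the bins of Sox9 and Kcnj2 were placed from general knowledge. The members and lists were chosen with earlier results of these data known. The strips and the reading of distances 20 kb shorter were added after seeing the data. The block counting was tested on simulated data with a constant expectation, and the distance expectation used above was not tested so. The code ran under scipy 1.17.1, pandas 2.3.3 and numpy 2.4.6 with Python 3.11.15.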

Additional observations from a re-analysis of the deposited data

How the results depend on the processing

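Of 104 values recomputed under alternatives for 14 results, 67 stayed within the counting interval or flank spread of the value as reported, 36 moved beyond it and 1 changed sign. Some of the 67 could not move. Reading distances across the boundary place shorter leaves pairs on the same side of it untouched. The cut at 100 kb removes no pairs of the Kcnj2 domain with the Sox9 side or with the desert strip. No paired analysis was possible because each genotype has 1 library, and no library could be left out. As log2 ratios, desert with Sox9 side (0.71) became 0.73 on balanced values, 0.76 when scaled to the flank total with no distance expectation, 0.72 with the expectation taken from the flanks, 0.69 for pairs at least 100 kb apart, 0.68 with 5 more bins left out on each side of the boundary place and 0.64 with distances across that place read 20 kb shorter in InvC∆Bor. Kcnj2 domain with Sox9 side (0.46) became 0.66 scaled to the flank total and 0.61 with the flank expectation. Within the Sox9 side (-0.26), the values were -0.24 balanced, -0.27 scaled, -0.36 beyond 100 kb and -0.20 with 5 more bins out. Kcnj2 domain with desert (-0.049) became -0.088 balanced, -0.0025 scaled and -0.037 with the flank expectation. Within the desert (-0.022), they were -0.043 balanced, -0.030 scaled, -0.062 beyond 100 kb and -0.0052 with 5 more bins out. Within the Kcnj2 domain 0.075 became 0.044 beyond 100 kb and changed sign on balanced values (-0.0029), and the cause was not tested. The 110 of 242 pairs between desert and Sox9 side past 1.5-fold became 19 at 2-fold and, with smaller bins of 30 kb, 316 of 629. The insulation difference of 1.27 was 1.67 with a 100 kb window and 0.95 with 400 kb. The Sox9 window's ratio with the desert, 1.84 thinned, was 1.77 with 1 bin. For the strips, leaving out 5 more bins took the desert strip with the rest of the desert from -0.22 to -0.06, and reading distances shorter took the strips with each other from 1.57 to 1.29. Depth limits pairs of places, where InvC had 168 contacts between Kcnj2 and Sox9. Thinned, it had 97, and the ratio was 2.33 in place of 2.17.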

Other observations

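Contacts of the interval with its flanks also differed by stretch. The inverted desert met the left flank at 1.57 times the expected contact in InvC and at 1.33 times without the boundary (ratio 0.845, 0.838 to 0.852; 112314 and 106251 contacts). The Sox9 side met the right flank at 0.636 and 0.518, a ratio of 0.815 (0.803 to 0.827; 38737 and 33077 contacts). By contrast, the Kcnj2 domain met the right flank at 0.542 and 0.631 (ratio 1.16), and the desert met it at 0.445 and 0.496 (1.11). The Kcnj2 domain with the left flank had a ratio of 0.942, and the Sox9 side with the left flank had 1.01 (0.991 to 1.02). Within the left flank the ratio was 1.02, within the right flank 0.981, and between the flanks 1.04. These ratios have no replicate check.

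At single places the desert bins just left of the boundary place gave 20.6% of their contacts to sequence left of the Kcnj2 domain in InvC and 16.1% in InvC∆Bor (ratio 0.782, 0.755 to 0.810). Their share with sequence right of the Sox9 side was 8.28% and 9.52% (1.15). The bins just right of the boundary place gave 15.4% and 10.1% to sequence right of the Sox9 side (0.654).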
